A study of Sus scrofa with 14 samples.

Results

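Tight junctions are belts of contact near the apical end of epithelial and endothelial cells, where claudins, occludin and JAM proteins of neighbouring cells meet. Claudins set which ions and solutes pass between cells, and the scaffold ZO-1, the product of TJP1, ties their inner ends to the actin cytoskeleton. In the mammary gland these junctions are leaky in pregnancy, close around the onset of milk secretion and open again after milk removal stops, while CLDN5 is best known as the claudin of blood vessel endothelium.

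The 9 genes described here are the claudins CLDN1, CLDN3, CLDN4, CLDN5, CLDN7 and CLDN8, occludin (OCLN), F11R, which encodes the junctional adhesion molecule JAM-A, and TJP1. They were picked by name as a family, with earlier results of these data known, out of 30071 gene identifiers in the series, and all 9 were found in nuclei, sections and milk. In the sections CLDN7 carries no symbol and was matched by its identifier, ENSSSCG00000017934. Nuclei came from mammary glands of multiparous sows, with 2 glands at each of 5 stages, which were day 90 of gestation (G90), day 0 (L0) and day 20 (L20) of lactation, and 2 and 7 days after natural involution (PI2 and PI7). Visium sections covered 1 gland of G90 and 1 of PI2, and milk cells came from 1 sample labelled L0 and 1 labelled L20. The title of the milk sample labelled L0 carries the letter that marks G90 in the other titles, so its stage rests on its time label, and so does every milk ratio given here. The labels name no treatment, and the 2 libraries of a stage are taken as separate sows. Every value is a UMI count, given per 1000000 UMIs (CPM) of the nuclei, spots or cells it was summed over.

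In all, 126833 nuclei were kept, with 18700704 to 53161349 UMIs per gland in the kept nuclei, and 96352 of them could be put in 1 of 9 classes by lists of marker genes that include none of the 9 genes. The 2 glands labelled L20 go against their lactation label in milk protein transcripts: caseins made up 0.0721% and 0.0106% of their UMIs, below the 0.121% to 1.06% of the glands of G90 and L0 and as low as in involution (0.0114% to 0.0908%). Only 8.99% of the kept nuclei of L20 gland 2 were gated as epithelial, against 25.7% to 84.6% in the other glands. That gland also supplied 413 of the nuclei gated as adipocytes. From L20 on, glands of 1 stage were less alike than some glands of different stages. Over the epithelial sums and 18260 genes, Spearman's rho was 0.903 between both glands of L20 and 0.880 between both of PI2, the lowest of all pairs, but 0.956 between L20 gland 1 and PI2 gland 2, 0.963 between L20 gland 2 and PI7 gland 1 and 0.971 between PI2 gland 1 and PI7 gland 2. Both glands of L0 had 0.976, both of G90 0.9502 and both of PI7 0.940. The groups stay as labelled, and every contrast with L20, PI2 or PI7 rests on those labels. Pairs of gland libraries shared at most 1.23% of the barcodes of the smaller one, and both milk libraries shared 284 barcodes.

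The inner end of a claudin is the part that the first PDZ domain of ZO-1 holds. To show how alike that end is among the 6 claudins measured here, the last 30 coding bases of each are printed from the RefSeq annotation of Sscrofa11.1, read 5′ to 3′ on the coding strand, with the last 2 codons before the stop codon in capitals.
CLDN1 (chr13:127715231-127715260, minus strand): tcgccttccagtgggaaagacTACGTGtga
CLDN3 (chr3:11019295-11019324, minus strand): acggcctacgaccgcaaggacTACGTAtga
CLDN4 (chr3:11053043-11053072, plus strand): cgctccgcccccgccagcaacTACGTGtaa
CLDN5 (chr14:51161626-51161655, minus strand): ggcgactacgacaagaagaacTACGTCtga
CLDN7 (chr12:52612734-52612763, minus strand): aagcccaattctgccaaggagTACGTGtga
CLDN8 (chr13:193563355-193563384, minus strand): agtgtgtactccagaagtcagTATGTAtag
The capitals read the same in CLDN1, CLDN4 and CLDN7, and the 6 differ from one another only in the last base of a codon. Over all 30 bases the pairs share between 10 bases (CLDN1 with CLDN8) and 21 bases (CLDN3 with CLDN5). CLDN3 and CLDN4 lie near each other on chromosome 3, at 11019073 to 11020102 and at 11039711 to 11053930, while CLDN5 (chromosome 14, 51161490 to 51162382) and CLDN8 (chromosome 13, 193563314 to 193564090) are annotated with a single exon. OCLN lies on chromosome 16 at 47600175 to 47652435 with 9 exons, and F11R on chromosome 4 at 89425101 to 89447889 with 10. TJP1 spans 265471 bases of chromosome 1, from 144930387 to 145195857, and overlaps the coding gene SEH1L, so some reads there could belong to either gene where strand was not used.

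Where in the gland each gene lies was asked by comparing each class with the mean of the other classes, with the sow as a block. CLDN3, CLDN4, CLDN7, CLDN8, OCLN, F11R and TJP1 were higher in epithelial nuclei, which is 7 of the 9 genes, beside 13.4% of all 13217 genes tested that were called higher there and 24.5% called in either direction. The median log2 fold change of the 9 was 1.91, and that of all genes tested was 0.27. A gene was called at an adjusted p under 0.05 and an absolute log2 fold change over 1. In endothelial nuclei CLDN5, F11R and TJP1 were called higher and CLDN1 lower, 4 of 9 beside 13.0% of all genes called in either direction. In the other classes the members called were 1 of 9 in myoepithelial nuclei (beside 12.5% of all genes), 1 in fibroblast nuclei (13.1%), 2 in macrophage nuclei (18.3%), 2 in T and NK nuclei (18.5%), 1 in B and plasma nuclei (8.87%) and 1 in adipocyte nuclei (10.3%), which are shares near those of all genes. The adipocyte call rests on 413 nuclei of L20 gland 2 and 24 of PI7 gland 1. When nuclei with a marker of another class were left out, only CLDN4, CLDN5, F11R and TJP1 kept enough counts to be tested, in 5 classes. Called there were still CLDN4 and F11R in epithelial nuclei (beside 27.7% of all genes under that gate), CLDN5, F11R and TJP1 in endothelial (17.5%), F11R in fibroblast (17.4%), and F11R and TJP1 in T and NK nuclei (21.3%), while TJP1 in epithelial nuclei was not, and the remaining calls were not tested under that gate. In mural nuclei neither edgeR nor DESeq2 called a member (beside 8.97% and 8.58%), and 0 of the 9 had an unadjusted p under 0.05, beside 23.3% of all genes. Only 4 glands gave a mural sum, of 26 to 78 nuclei, and the SEs of the members there ranged from 0.334 to 8.34. Differences of these genes in mural nuclei could therefore have been missed.

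CLDN8, a claudin of tight epithelia that limits cation passage, showed the largest log2 difference of the 9 between epithelial nuclei and the mean of the other classes, at 3.57 ± 0.28 (SE, edgeR adjusted p = 5.55e-19). That mean includes adipocyte nuclei, in which CLDN8 and CLDN3 had 0 UMIs. Against myoepithelial nuclei alone, the mean log2 difference within glands was 2.18 for CLDN8 and 2.14 for CLDN3, below the 2.53 of CLDN7. Its epithelial level in the glands was 39.3 and 34.2 CPM at G90, 85.9 and 97.7 at L0, then 30.8 and 108.7 at L20, with 118.7 and 35.6 at PI2 and finally 175.6 and 148.7 at PI7. The glands of L20 and of PI2 differ from each other by more than the 2 glands of any other stage do. In myoepithelial nuclei, the contractile cells around the alveoli, CLDN8 was called higher too (log2 difference 1.41 ± 0.52, adjusted p = 0.0452), with levels from 0 to 120.1 CPM over the 10 glands, and the adjusted p was 0.244 when both glands of L20 were left out. Its mean there was 32.8 CPM, beside 27.4 in T and NK nuclei, and myoepithelial nuclei were the higher ones in 5 of 9 glands. An exact sign-flip permutation test of that step within glands gave p = 0.906. No CLDN8 UMI was found among 1652063 UMIs of adipocyte nuclei from 2 glands, so its level there was at least 40.9-fold lower than the pooled epithelial level, taking 3 counts over both glands as the limit, for counting error only. CLDN3 was also at 0 in the adipocyte nuclei, at least 9.70-fold below its pooled epithelial level.

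CLDN3, CLDN4 and CLDN7 are sealing claudins of secretory and ductal epithelia. CLDN3 averaged 22.0 ± 15.2 CPM (SD, n = 10 glands) in epithelial nuclei and 7.42 ± 9.17 in myoepithelial nuclei, with a log2 difference to the other classes of 3.29 ± 0.35 (SE, adjusted p = 7.15e-13). CLDN4 averaged 182.4 ± 183.0 CPM in epithelial nuclei, with 2.55 ± 0.18 (SE, adjusted p = 4.49e-21), and CLDN7 averaged 61.8 ± 30.4 CPM, with 1.91 ± 0.22 (adjusted p = 1.04e-11). The SD of CLDN4 is as large as its mean, and that spread comes from few glands. CLDN4 reached 672.4 CPM in epithelial nuclei of PI2 gland 2 and 267.2 CPM in those of L20 gland 1, and stayed between 62.4 and 188.5 CPM in the other 8 glands. These 2 glands are 1 of the pairs from different stages that resemble each other.

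OCLN, which spans the membrane at the junction strand and helps hold tricellular contacts, averaged 84.1 ± 18.9 CPM (SD, n = 10) in epithelial nuclei and had the log2 difference 2.60 ± 0.21 (SE, adjusted p = 1.74e-18). Endothelial nuclei came next with 37.0 ± 16.0 CPM, and their log2 difference of 0.92 ± 0.24 (SE) passed the test (adjusted p = 0.00205) but not the fold limit. Without the glands of L20 it was 1.96 and passed both, against a mean of the other classes that rested on fewer sums. Adipocyte nuclei then came from PI7 gland 1 alone (24 nuclei). Mural nuclei came from PI2 gland 1 and both glands of PI7 (39, 51 and 78 nuclei). The part of these sparse sums in the difference was not tested.

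CLDN5 was 237.6 ± 134.7 CPM (SD, n = 10) in endothelial nuclei and at most 6.69 CPM on average in every other class. Its log2 difference of 6.17 ± 0.30 (SE, edgeR adjusted p = 5.05e-30) stayed between 5.71 and 7.30 under every alternative tried. The endothelial level ran from 51.9 CPM in G90 gland 2 to 513.6 in L20 gland 1. No other class reached this range in any sum of at least 20 nuclei, the highest being 25.1 CPM in epithelial nuclei of PI2 gland 2.

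F11R and TJP1 serve junctions of epithelium and of vessels, and both were highest in endothelial nuclei. F11R averaged 204.2 ± 71.4 CPM in endothelial and 123.7 ± 47.5 in epithelial nuclei (SD, n = 10), and TJP1 averaged 245.1 ± 49.6 and 160.3 ± 37.1. Within a gland the endothelial value was the higher one in 10 of 10 glands for each gene. The mean log2 difference was 0.72 for F11R and 0.62 for TJP1, each with p = 0.00195 in a two-sided exact sign-flip permutation test, the smallest p that 10 glands allow, and 0.0281 adjusted over the 72 comparisons of neighbouring classes. For TJP1 the call of epithelial nuclei against all other classes rested on a log2 difference of 1.098 ± 0.134 (SE), close to the limit of 1, and was lost with RLE size factors (0.72) and when nuclei with a marker of another class were left out (0.77). That of F11R was lost with RLE size factors (0.95). TJP1 was called lower in T and NK nuclei (log2 difference -1.29 ± 0.19, adjusted p = 5.24e-08). F11R was called lower in T and NK nuclei (-1.101 ± 0.227), in B and plasma nuclei (-1.39 ± 0.36) and in fibroblast nuclei (-1.07 ± 0.19).

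CLDN1 did not follow the epithelium. It averaged 6.15 ± 5.72 CPM in epithelial nuclei (SD, n = 10) with a log2 difference of 0.03 ± 0.38 (SE, adjusted p = 0.968). The only class in which it was called higher was macrophage nuclei (1.602 ± 0.557, adjusted p = 0.0195), but the counts behind this are 63 UMIs, of which 10 come from the 37 macrophage nuclei of L0 gland 2 and none from those of L0 gland 1 or L20 gland 1. Its lower call in endothelial nuclei (-1.78 ± 0.58, adjusted p = 0.0148) was lost when 3 markers were asked of a nucleus (-0.16 ± 3.92), and without the glands of L20 its SE was 717, so that no size could be read. OCLN was called lower in macrophage nuclei (-1.06 ± 0.34, adjusted p = 0.0115), which was lost without the glands of L20 (-0.09) and turned to 0.35 when 3 markers were asked of a nucleus.

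**Figure D1:**
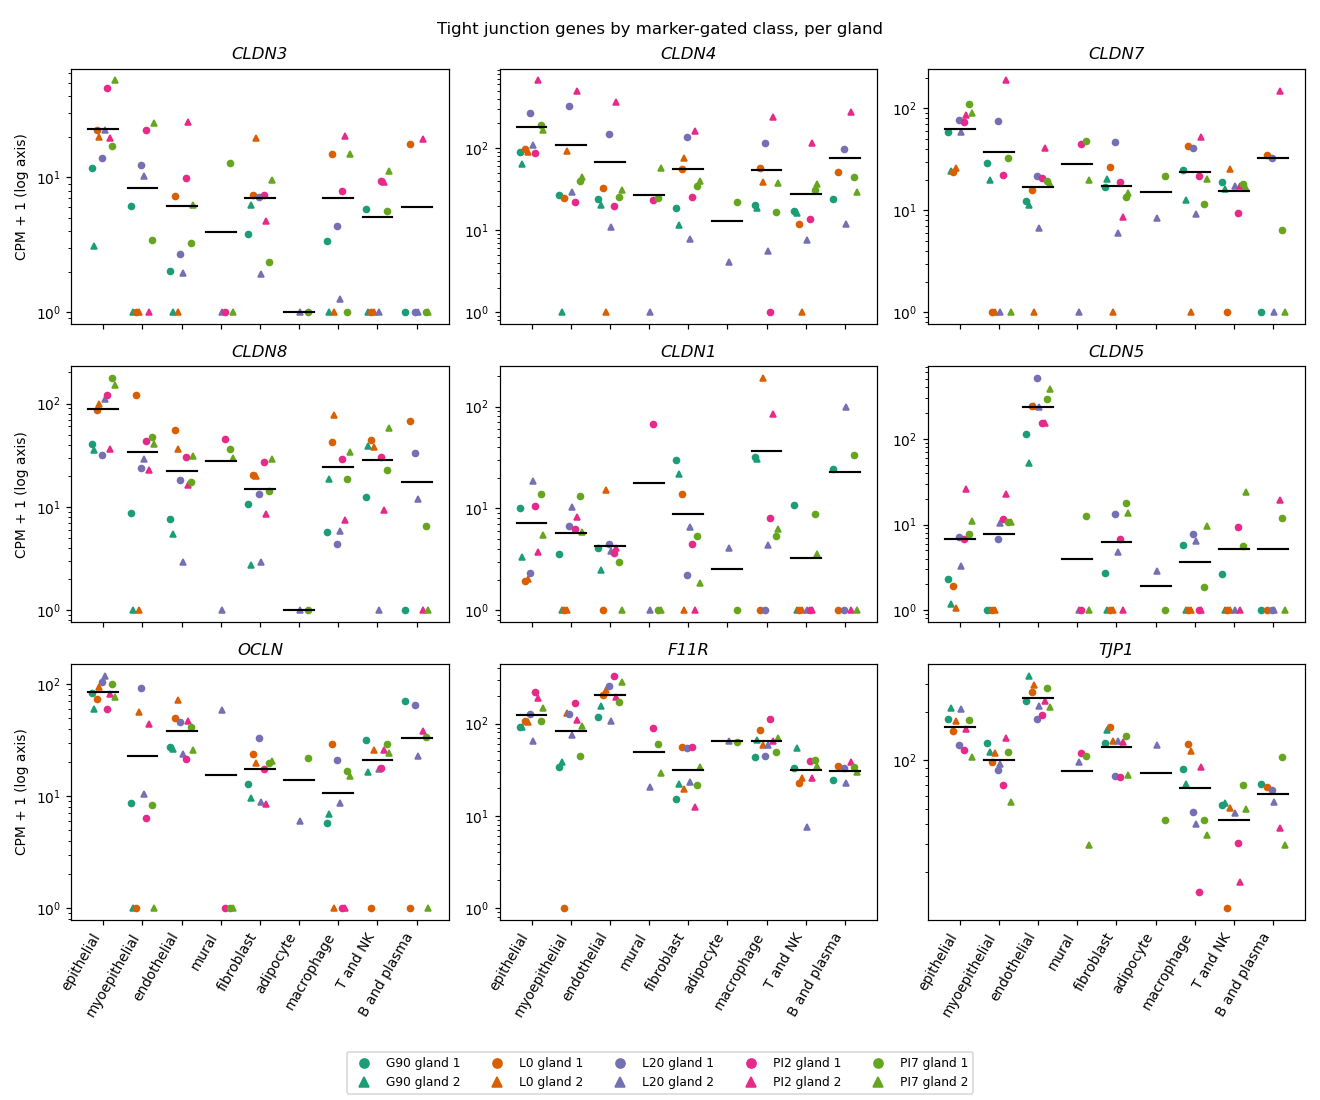
Level of each of the 9 genes (CPM + 1, log axis) by marker-gated class, 1 point per gland with at least 20 nuclei of that class, coloured by stage, with the mean as a black bar. CLDN5 stands at 51.9 to 513.6 CPM in endothelial nuclei and at 25.1 CPM or less elsewhere, while CLDN4 in PI2 gland 2 is the highest point of its gene in epithelial, myoepithelial and endothelial nuclei alike.

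Free RNA can put UMIs of an abundant transcript into nuclei that do not express it, so the low values outside the epithelium were set beside those of milk protein genes, which fibroblasts do not make. In fibroblast nuclei CSN2, the beta-casein gene, stood at 31.8% of its mean epithelial level, LALBA, the alpha-lactalbumin gene, at 57.1% and the epithelial adhesion gene EPCAM at 11.8%. CLDN3 stood there at 27.5%, CLDN4 at 30.4%, CLDN7 at 26.4%, CLDN8 at 15.9%, OCLN at 19.5% and F11R at 24.6%, all above EPCAM and below CSN2. TJP1 stood at 75.5%, above both milk protein genes. In T and NK nuclei the shares were 18.5% for CLDN3, 14.8% for CLDN4, 23.7% for CLDN7, 31.3% for CLDN8 and 23.8% for OCLN, beside 27.7% for CSN2, so CLDN8 alone lay above it. How much of these values free RNA supplies was not tested, so they are read neither as expression nor as background. CLDN5 in fibroblast nuclei averaged 5.33 CPM against 237.6 in endothelial nuclei. CLDN4 in PI2 gland 2 reached 158.7 CPM in fibroblast, 236.1 in macrophage and 115.4 in T and NK nuclei, which are the highest CLDN4 values of those classes in any gland.

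**Figure D2:**
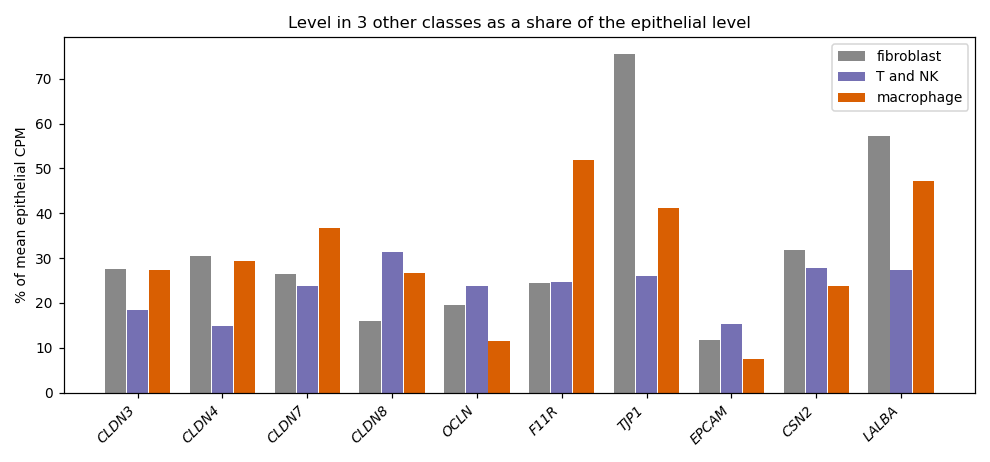
Mean level in fibroblast, T and NK, and macrophage nuclei as a percent of the mean epithelial level, for 7 of the genes and for EPCAM, CSN2 and LALBA. The bars of CLDN3, CLDN4, CLDN7, CLDN8 and OCLN in fibroblasts (15.9% to 30.4%) lie below that of CSN2 (31.8%), and that of TJP1 (75.5%) lies above.

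Neighbouring classes in the order of levels were compared within glands. Of the 72 neighbouring pairs with a test, 6 passed an adjusted p of 0.05, and 25 rested on so few glands that even their smallest possible p lies above 0.05, so they say nothing of a difference. The 6 that passed were epithelial over myoepithelial nuclei for CLDN3, endothelial over myoepithelial nuclei for CLDN5, epithelial over endothelial nuclei for OCLN, endothelial over epithelial nuclei for TJP1 and for F11R, and epithelial over fibroblast nuclei for TJP1. For CLDN4 the step from epithelial to myoepithelial nuclei (182.4 and 109.3 CPM, higher in 8 of 10 glands) had an exact permutation p of 0.00781, which adjusts to 0.0703. The same step for CLDN7 adjusts to 0.109 and that for CLDN8 to 0.0603.

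Within the epithelium, nuclei with at least 2 hormone-sensing markers such as the receptor genes ESR1 and PGR were compared with epithelial nuclei of neither subclass. Only CLDN8 was called, 1 of 9 beside 5.26% of all 13774 genes called higher and 9.97% called in either direction. It was higher in hormone-sensing nuclei in 10 of 10 glands, with a log2 difference of 1.82 ± 0.21 (SE, edgeR adjusted p = 3.26e-07). CLDN8 in hormone-sensing nuclei was 87.3 and 170.2 CPM at G90, 97.8 and 111.8 at L0, then 61.7 and 539.9 at L20, with 359.5 and 178.7 at PI2 and finally 548.5 and 530.3 at PI7. In the other epithelial nuclei of the same glands it was 32.0 and 31.8 at G90, 84.4 and 99.5 at L0, then 29.0 and 85.7 at L20, with 107.3 and 32.1 at PI2 and finally 140.8 and 134.9 at PI7. Both glands of L0 had the smallest log2 ratios, 0.21 and 0.17, and the other 8 glands ranged from 1.06 to 2.64, so the L0 glands do not overlap with the rest. Whether the ratio differs between stages was not tested. Markers of the gate also differed between stages: ESR1 in hormone-sensing nuclei was 768 and 414 CPM at G90, 485 and 509 at L0 and 965 to 2591 in the 6 later glands, and FOXA1 was 35.2 and 32.3 CPM at L0 and 55.0 to 476.5 elsewhere, while PGR was 978.5 and 252.7 CPM at G90, 367.9 and 360.2 at L0 and 132.0 to 338.4 in the 6 later glands. Their part in the CLDN8 ratio was not tested. When nuclei with a marker of another class were left out, too few hormone-sensing nuclei remained for the comparison to be made. The other 8 genes differed by log2 values from -0.49 (CLDN3, adjusted p = 0.0542) to 0.68 (CLDN1, adjusted p = 0.134) and none was called.

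Epithelial nuclei marked by KIT and ALDH1A3 had no member called by edgeR or by DESeq2, beside 0.348% and 0.261% of all genes called in either direction, and 4 of the 9 had an unadjusted p under 0.05, beside 12.3% of all genes. CLDN3 was raised by a log2 difference of 0.50 ± 0.12 (SE, adjusted p = 0.0445) against the other epithelial nuclei, higher in 8 of 10 glands, which passed the test but not the fold limit. CLDN4, CLDN7 and OCLN had log2 differences of 0.35, 0.26 and 0.28, with adjusted p of 0.109, 0.159 and 0.150.

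Lymphatic and blood endothelial nuclei could be compared for CLDN5, F11R, OCLN and TJP1, the 4 of 9 genes with enough counts. With the sow as a block and low counts filtered, none was called by edgeR or by DESeq2, beside 8.83% and 9.04% of the 6910 genes tested, and 2 of the 4 had an unadjusted p under 0.05, beside 30.8% of all genes. OCLN was lower in lymphatic nuclei by a log2 difference of -0.95 ± 0.27 (SE, adjusted p = 0.0117), just short of the fold limit, and lower in 7 of the 8 glands with both kinds of nuclei. With no filter on low counts, or with no sow block, edgeR called OCLN lower, beside 3.8% and 8.05% of all genes called under these settings. For CLDN5 the difference was -0.53 ± 0.23 (adjusted p = 0.113). CLDN5 in lymphatic and blood nuclei was 150.5 and 91.1 CPM in G90 gland 1, 91.7 and 29.9 in G90 gland 2, 191.5 and 280.5 in PI7 gland 1 and 256.5 and 451.3 in PI7 gland 2. Lymphatic nuclei were the higher ones in both glands of G90 and the lower ones in both glands of PI7. The levels of G90 gland 2 rest on sums of 87275 lymphatic and 267742 blood UMIs, and so on few CLDN5 UMIs. In the other 4 glands compared, CLDN5 in lymphatic and blood nuclei was 175.8 and 220.2 CPM in L0 gland 1, 655.6 and 450.1 in L20 gland 1, 138.3 and 327.6 in L20 gland 2, and 66.8 and 244.4 in PI2 gland 1. The lowest log2 ratio was that of PI2 gland 1 (-1.86), and both glands of L20 went opposite ways.

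**Figure D3:**
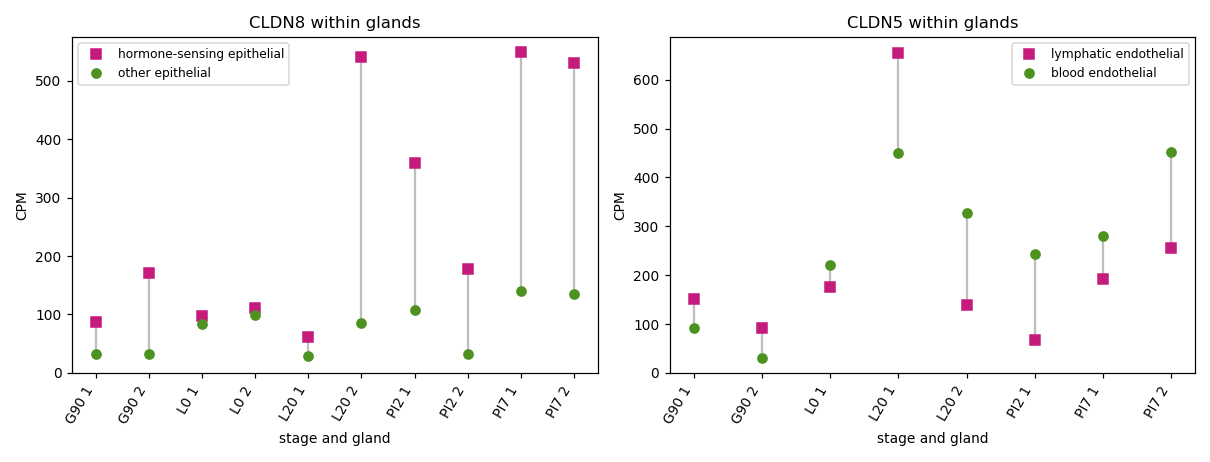
Left, CLDN8 level (CPM) in hormone-sensing and other epithelial nuclei of each gland, joined by a line. Right, CLDN5 level (CPM) in lymphatic and blood endothelial nuclei of the 8 glands with at least 20 nuclei of each. The squares of CLDN8 lie close to the circles at L0 (97.8 against 84.4 and 111.8 against 99.5 CPM) and far above them at PI7.

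Other junction genes from a list of 59 symbols, 52 of them found, were read beside the 9. Of the 38 that could be tested between classes, 22 were higher and 5 lower in epithelial nuclei, beside 13.4% of all genes called higher and 24.5% called in either direction, with a median log2 difference of 1.41 beside 0.27 for all genes. All 4 genes of tricellular junctions and the MARVEL family that were tested were higher, with MARVELD3 at 3.65 ± 0.31, MARVELD2 (tricellulin) at 3.50 ± 0.28, ILDR1 at 3.15 ± 0.24 and LSR at 3.12 ± 0.26 (log2 difference ± SE). Of 10 plaque genes 7 were higher and none lower, and of 5 genes of immunoglobulin-like junction proteins CXADR was higher (3.04 ± 0.16) and 2 were lower.

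In endothelial nuclei 11 of the 38 were higher and 2 lower, beside 13.0% of all genes called in either direction. The largest differences there belonged to CDH5, the VE-cadherin gene (5.28 ± 0.21), CLDN11 (4.65 ± 0.23), PARD6G (3.91 ± 0.18), ESAM (2.88 ± 0.24) and JAM2 (2.81 ± 0.21), so CLDN11 was a further claudin gene of endothelial nuclei beside CLDN5. Of 24 tested, 2 were higher and 3 lower in lymphatic nuclei, beside 8.83% of all genes, with less JAM2 (-3.50 ± 0.31), ESAM (-2.64 ± 0.25) and JAM3 (-2.04 ± 0.30) than in blood endothelial nuclei and more PARD6G (2.10 ± 0.20) and PRKCZ (1.68 ± 0.19). Of 39 tested, 5 were higher and 2 lower in hormone-sensing nuclei, beside 9.97% of all genes, with more CDH2, the N-cadherin gene (2.23 ± 0.33), NECTIN1 (1.91 ± 0.18) and MAGI3 (1.29 ± 0.27) and less JAM3 (-1.58 ± 0.31) and MAGI2 (-1.20 ± 0.24). Fibroblast nuclei had 8 of the 38 higher, led by CLMP (4.02 ± 0.21), and 2 lower, beside 13.1% of all genes. Myoepithelial nuclei had 13 higher and 3 lower, beside 12.5%, led by NECTIN1 (2.88 ± 0.27) and CDH3, the P-cadherin gene (2.88 ± 0.32). Mural nuclei had 3 higher, led by JAM3 (3.69 ± 0.35), and 2 lower, beside 8.97%. Macrophage nuclei had 1 higher and 14 lower (beside 18.3%), T and NK nuclei 13 lower (18.5%), B and plasma nuclei 10 lower (8.87%), and adipocyte nuclei 5 higher and 3 lower (10.3%).

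Over the 72 sums of a class in a gland, the genes outside the marker lists with the most similar log2 level were GPR182 (r = 0.82), BTNL9 (0.82) and TBX1 (0.82) for CLDN5, MYH14 (0.72), LBP (0.70) and S100A2 (0.69) for CLDN4, and CGNL1 (0.66), SLC15A1 (0.63) and ADGRF1 (0.63) for OCLN. For CLDN7 they were ATXN7L2 (0.75), ADCK5 (0.73) and EIF2B4 (0.69), for CLDN8 PHF10 (0.67), NMNAT3 (0.65) and SLC44A3 (0.65), and for CLDN3 AKR1C2 (0.57), MPZL2 (0.57) and SPINT1 (0.57). For TJP1 they were RAPGEF5 (0.73), CDC42BPA (0.73) and ARHGEF12 (0.71), for F11R MRTFB (0.65), ARHGAP27 (0.62) and DAGLB (0.60), and for CLDN1 KIF1A (0.58), TNFSF15 (0.51) and PLAUR (0.50). Sums of 1 gland share a library and differ in depth, so these r values describe likeness only. Among the 9 genes themselves the highest r was 0.59, between CLDN5 and F11R, followed by 0.51 between CLDN3 and CLDN4.

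How the genes differed from stage to stage was asked in 4 contrasts of adjacent stages, first over all nuclei of a gland. No member was called in any of them, beside 0% of the 22695 genes called. At an unadjusted p under 0.05 stood 2 of 9 members from G90 to L0, beside 7.28% of all genes, 2 of 9 from L0 to L20, beside 12.8%, 1 of 9 from L20 to PI2, beside 3.6%, and none from PI2 to PI7, beside 2.04%. DESeq2, run as an alternative, called 1 member contrast, CLDN8 from L0 to L20, beside 4.82% of all genes there. In the other contrasts it called 1.63% of all genes from G90 to L0, 0.0705% at the step into PI2 and 0.0661% at the step into PI7. In data simulated for L0 against G90, none of 100 genes changed by a log2 value of 2 passed edgeR's test with all stages fitted together. Every simulated gene had the same spread, a coefficient of variation of 0.555 from all 10 glands, and only better-counted genes were changed. That spread includes the unlike glands of L20 and PI2, so the share found with the spread of L0 and G90 alone could differ. In data simulated for lymphatic against blood endothelial nuclei, 93.9% of 99 genes changed by a log2 value of 1 passed the test and 51.5% were called. Of 93 genes changed there by a log2 value of 2, 100% were called. No other fit was simulated. A sum over all nuclei mixes the shares of the classes with the levels within them, so values within epithelial and endothelial nuclei are given beside it.

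CLDN8 was the member with the most contrasts at an unadjusted p under 0.05. Over all nuclei it was 31.4 and 32.8 CPM at G90, 84.8 and 97.0 at L0, then 29.99 and 21.8 at L20, with 94.1 and 32.4 at PI2 and finally 87.5 and 109.8 at PI7. Both glands of L0 were above both of G90 and both of L20, and both glands of PI2 were above both of L20. With 2 glands a stage such an order is common by chance, here and for the genes below. The log2 fold change was 1.87 ± 0.62 (SE, edgeR adjusted p = 0.489) from G90 to L0, -2.26 ± 0.63 (adjusted p = 0.205) from L0 to L20 and 1.48 ± 0.61 (adjusted p = 0.825) from L20 to PI2. Each of these changes had an unadjusted edgeR p under 0.05. In epithelial nuclei alone the first step was 1.70 ± 0.58 (adjusted p = 0.278), while the level at L20 gland 2 was 108.7 CPM, above both glands of L0, and the next step was -0.96 ± 0.57 (adjusted p = 0.525).

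CLDN3 over all nuclei was 8.57 and 2.11 CPM at G90, 21.1 and 18.6 at L0, then 13.0 and 4.85 at L20, with 33.9 and 18.7 at PI2 and finally 8.13 and 36.4 at PI7. Both glands of L0 were above both of G90, with a log2 fold change of 2.44 ± 0.93 (SE, adjusted p = 0.583), and of 2.17 ± 0.78 (adjusted p = 0.303) in epithelial nuclei. Both glands of L20 were below both of L0 (-1.52 ± 0.90, adjusted p = 0.501), and those of PI2 and PI7 overlapped with L0.

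CLDN5 over all nuclei was 10.9 and 0.978 CPM at G90, 6.70 and 2.12 at L0, then 23.5 and 41.3 at L20, with 25.1 and 27.4 at PI2 and finally 66.8 and 57.7 at PI7. The 6 glands from L20 on lay above the 4 earlier ones. The step from L0 to L20 had a log2 fold change of 2.30 ± 0.84 (SE, adjusted p = 0.292). Endothelial nuclei made up 8.54% and 2.02% of the kept nuclei at G90, 2.36% and 1.15% in the L0 glands, 3.64% and 16.3% in those of L20, 12.5% and 2.16% in those of PI2, and 19.1% and 12.2% in those of PI7. The order of the glands is not the same, since PI2 gland 2 had fewer endothelial nuclei than G90 gland 1 and more CLDN5. Epithelial nuclei of PI2 gland 2 had the highest CLDN5 level given above outside endothelial nuclei. They held 13794677 UMIs, against 324619 in its endothelial nuclei, so CLDN5 over all nuclei of that gland is not a value of vessels alone. The part of the endothelial shares in the result was not tested. Within endothelial nuclei CLDN5 was 114.8 and 51.9 CPM at G90, 239.0 and 239.5 at L0, then 513.6 and 238.1 at L20, with 154.3 and 154.0 at PI2 and finally 288.5 and 382.5 at PI7. There the log2 fold changes were 1.47 ± 0.49 from G90 to L0 (adjusted p = 0.872), -1.21 ± 0.48 from L20 to PI2 (adjusted p = 0.881) and 1.04 ± 0.48 from PI2 to PI7 (adjusted p = 1.0). The groups of 2 glands did not overlap in these 3 steps, which is common by chance with so few glands. How many of all genes did so was not counted.

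In epithelial nuclei, with all stages fitted together, neither edgeR nor DESeq2 called a member. Of all genes edgeR called 0.00509% from G90 to L0 and 0% in the other 3 contrasts, and DESeq2 called 4.3%, 4.74%, 0.056% and 0.102% over the 4 contrasts in order. Fitted on only the 2 stages compared, edgeR called CLDN8 from G90 to L0 there (adjusted p = 0.0283, beside 5.22% of all genes) and over all nuclei (adjusted p = 0.0419, beside 2.01%). From G90 to L0 an unadjusted p under 0.05 held for CLDN3 and CLDN8, 2 of 9 beside 11.5% of all genes, and from PI2 to PI7 for none, beside 2.66%. In epithelial nuclei 3 members stood at an unadjusted p under 0.05 from L0 to L20, all of them higher at L20, beside 13.0% of the 19657 genes tested. CLDN7 was 22.6 and 24.9 CPM at L0 and 76.0 and 57.6 at L20, a log2 fold change of 1.12 ± 0.46 (SE, adjusted p = 0.341). CLDN1 was 0.945 and 1.02 CPM at L0 and 1.301 and 17.4 at L20, with 2.58 ± 1.05 (adjusted p = 0.331), and the higher value is that of L20 gland 2. CLDN5 was 0.904 and 0.0566 CPM at L0 and 6.11 and 2.24 at L20 (2.80 ± 1.24, adjusted p = 0.374), all far below its endothelial level. F11R was 124.3 and 63.5 CPM at L20 and 218.8 and 186.5 at PI2, a log2 fold change of 1.17 ± 0.51 (adjusted p = 0.918), beside 3.44% of genes at that limit. TJP1 and OCLN had no stage contrast with an unadjusted p under 0.05 in all nuclei, in epithelial or in endothelial nuclei. Their epithelial levels ranged from 104.4 to 210.3 and from 58.7 to 117.2 CPM over the 10 glands.

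In endothelial nuclei CLDN1 had too few counts to be tested. Of the other 8 members 2 had an unadjusted p under 0.05 from G90 to L0, beside 5.57% of all genes, 1 did so from L0 to L20 (beside 6.33%), 2 did at the step into PI2 (4.97%) and 2 at the step into PI7 (2.3%). CLDN5 is given above. CLDN8 had a log2 fold change of 2.98 ± 0.96 (SE) from G90 to L0 and of -2.74 ± 0.97 from L0 to L20, at levels of 1.90 to 55.0 CPM. Milk protein transcripts, which endothelial cells do not make, differed the same way in these nuclei: CSN2 was 18.4 and 343.7 CPM at G90, 712.7 and 612.8 at L0 and 44.8 and 1.71 in the L20 glands, and LALBA was 0.510 and 11.9, then 315.1 and 112.7, then 49.99 and 0.189 CPM. EPCAM was 21.9 and 37.0 CPM at G90 and 35.95 and 0 at L0. Their part in the CLDN8 values was not tested. CLDN3 had 3.77 ± 1.38 from L20 to PI2 and CLDN4 had -2.87 ± 1.23 from PI2 to PI7. Without PI2 gland 2, in which CLDN4 was 363.5 CPM, that value turned to 0.42. Endothelial nuclei of that gland also held CSN2 at 338.9 CPM, against 0.887 in PI2 gland 1 and at most 0.761 at PI7, and the part of this in the values was not tested. Adjusted p-values in endothelial nuclei of these contrasts were 0.762 or higher, and edgeR called 0% of the 13242 genes tested. DESeq2 called no member there either, beside 0.121%, 0.302%, 0.00755% and 0% of all genes over the 4 contrasts in order. With no filter on low counts edgeR did call a member in these nuclei, as given under the dependence on processing.

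**Figure D4:**
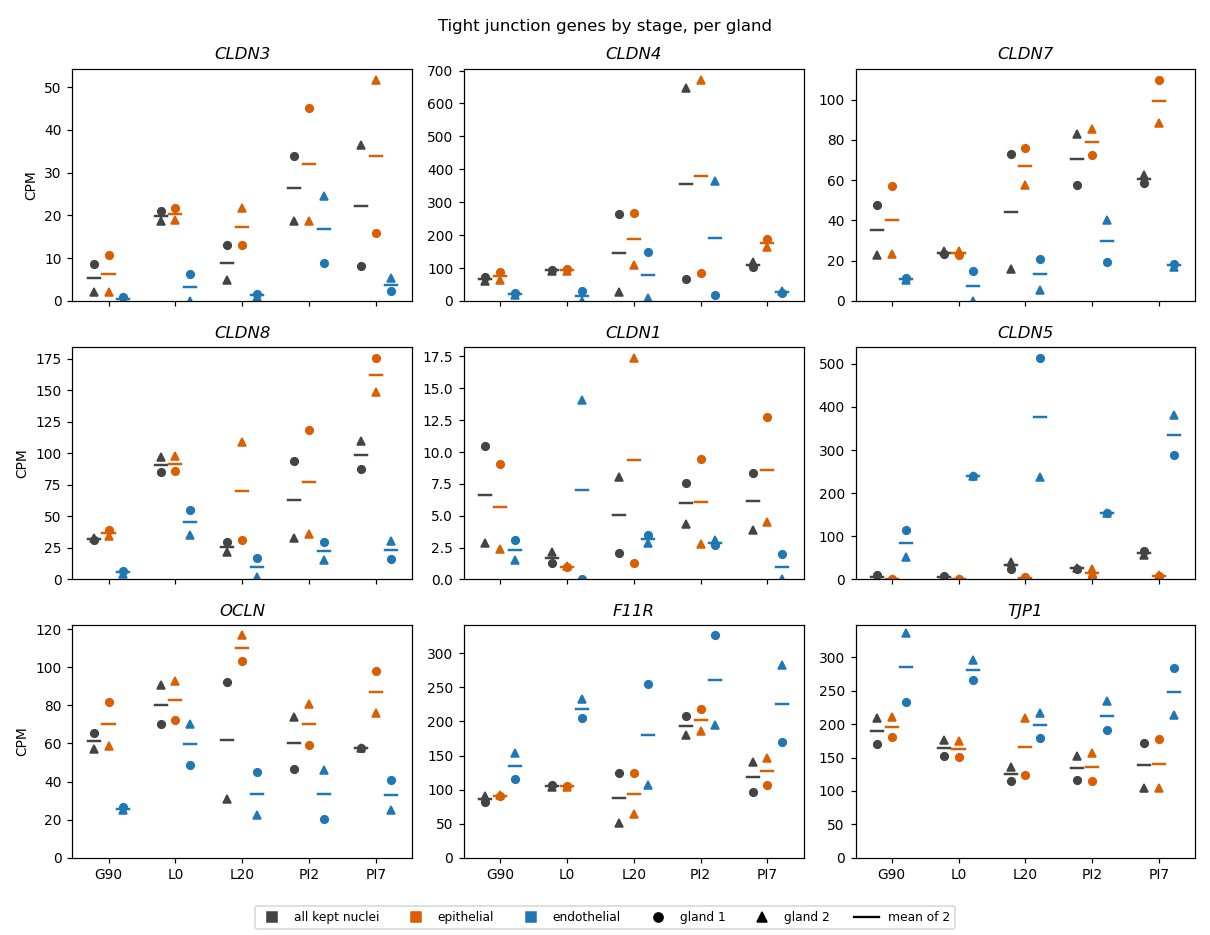
Level (CPM) of each gene at the 5 stages in all kept nuclei (grey), epithelial nuclei (orange) and endothelial nuclei (blue), with 1 symbol per gland and a bar at the mean of 2. CLDN8 over all nuclei is higher in both L0 glands (84.8 and 97.0 CPM) than in both of G90 and L20, and CLDN4 shows 1 gland of PI2 far above the rest.

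Of the other junction genes, none was called between stages by edgeR in any of the 3 sums. At an unadjusted p under 0.05 from L0 to L20 stood 17 of 49 tested over all nuclei and 11 of 48 in epithelial nuclei, beside 12.8% and 13.0% of all genes. From G90 to L0 these were 7 and 9, beside 7.28% and 11.5%. At the step into PI2 they were 1 and 0, beside 3.6% and 3.44%, and at the step into PI7 none in either, beside 2.04% and 2.66%. In endothelial nuclei they were 3, 4, 3 and 1 of 40 over the 4 steps in order, beside 5.57%, 6.33%, 4.97% and 2.3% of all genes.

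The sections held 4721 spots and 42815421 UMIs at G90 and 2248 spots and 17906403 UMIs at PI2. A spot can hold several cells, and with 1 section a stage no test was possible. Intervals are 95% exact ones and cover counting error only. CLDN5 was 45.6 CPM (43.6 to 47.6) at G90 and 251.8 CPM (244.5 to 259.2) at PI2, a ratio of 5.52 (5.24 to 5.83), while PECAM1, a general endothelial gene, had a ratio of 2.04. More cells of a type and more RNA per cell cannot be told apart in a section. Thinned to 1000 UMIs a spot, the CLDN5 ratio was 4.14. CLDN8 was 39.4 CPM at G90 and 87.8 at PI2, a ratio of 2.23 (2.08 to 2.39), while EPCAM had a ratio of 0.545. F11R had a ratio of 1.62 and CLDN4 one of 1.399, while CLDN7 (0.731), OCLN (0.794) and CLDN1 (0.340) were lower at PI2. Thinning moved OCLN to 0.5255 (0.373 to 0.728) and CLDN1 to 0.211 (0.0747 to 0.485). TJP1 was 62.7 and 59.9 CPM, a ratio of 0.955 (0.889 to 1.025) whose interval holds 1.

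CLDN3 gave only 16 UMIs in the section of G90 and 9 in that of PI2, 0.37 and 0.50 CPM, against 22.0 CPM in epithelial nuclei. CLDN7 was 330.3 and 241.5 CPM in the sections against 61.8 in epithelial nuclei. The kits and the annotation differ between the assays, so these levels stand side by side only.

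Spots were then ranked by the share of their UMIs from marker genes, and the 1180 highest spots of G90 and the 562 highest of PI2 were set against as many of the lowest. At PI2 the spots richest in epithelial markers held more OCLN (58.6 against 15.5 CPM, ratio 3.77), CLDN8 (119.9 against 34.1, ratio 3.51), CLDN4 (ratio 2.94) and CLDN7 (ratio 2.56) than the poorest, and less CLDN5 (ratio 0.54). TJP1 did not follow this ranking (60.2 against 61.3 CPM, ratio 0.982, 0.801 to 1.21), and F11R did so less (1.26, 1.07 to 1.49). At G90 the same contrast gave 1.74 for OCLN, 1.63 for CLDN8, 1.18 for CLDN4, 1.12 for CLDN7 and 0.23 for CLDN5, 1.62 for F11R and 1.21 for TJP1. By endothelial markers the highest spots had 120.3 CPM of CLDN5 against 24.1 at G90 and 408.8 against 122.7 at PI2. Both ends of the ranking held more CLDN5 at PI2 than at G90.

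Milk held 17571 cells at L0 and 14514 at L20. Of these 2886 and 1285 were gated as epithelial, with a median of 16337.5 and 2543 UMIs a cell, so the 2 samples differ in depth as well as in day. CLDN3 was 761.9 CPM in epithelial milk cells at L0 and 330.8 at L20, a ratio of 0.43. It gave 22.0 CPM in epithelial nuclei of the gland, which were read with another kit, so the levels stand side by side only. CLDN7 had a ratio of 0.40, TJP1 of 0.60, OCLN of 0.62, F11R of 0.65 and CLDN4 of 0.73 (590.4 and 428.2 CPM), while CSN2 and EPCAM had 1.098 and 0.942. CLDN8 was 20.0 and 22.9 CPM, a ratio of 1.15 (0.985 to 1.33) whose interval holds 1. CLDN1 was 7.27 and 0.847 CPM, but 59.9% of its UMIs at L0 sat in 10 cells. At L20 the 10 highest epithelial cells held 36.9% of the OCLN UMIs, 33.0% of those of CLDN4, 26.2% of F11R, 24.3% of CLDN7, 24.02% of CLDN3, 23.4% of TJP1 and 19.9% of CLDN8, against 4.65% to 10.7% for these 7 genes at L0. When a cell with any UMI of another class's marker was left out, 103 cells at L0 and 230 at L20 remained. CLDN4 turned to 1.58 (1.21 to 2.09), F11R to 3.22 (0.931 to 17.1, from 3 and 17 UMIs) and the comparator CSN2 to 0.729 (0.717 to 0.741), and CLDN8 was 4.26 (0.991 to 38.4, from 2 and 15 UMIs). CLDN3 (0.620) and CLDN7 (0.603) kept intervals below 1, and those of OCLN (0.821) and TJP1 (0.830) then held 1.

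Epithelial cells with a CLDN3 UMI were 84.3% at L0 and 34.2% at L20, and 35.8% and 10.2% after thinning each cell to 800 UMIs. In neutrophil-gated cells, which should lack it, the share was 4.38% and 0.195% at median depths of 1195 and 1146 UMIs, and 2.56% and 0.0678% after thinning. The thinned CLDN4 shares were 24.4% and 10.2% of epithelial cells and 2.25% and 0.119% of neutrophil-gated cells, and those of CLDN7 were 21.5% and 8.45% of epithelial cells and 1.27% and 0.0339% of neutrophil-gated cells. Each thinned share of these 3 genes in epithelial cells lies above that of neutrophil-gated cells of the same sample.

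CLDN5 was found in another class in milk. Neutrophil-gated cells carried 1350 UMIs of it at L0, 95.04 CPM, and 136 UMIs at L20, 16.0 CPM, of which 10 cells held 9.04% and 39.0%. The ratio of L20 to L0 was 0.168 (0.140 to 0.201), and it was 0.0981 when 500 genes and at most 10% mitochondrial UMIs were asked of a cell and 0.0960 at 3 markers. Without cells holding a marker of another class it was 0.206 (0.161 to 0.261). Epithelial milk cells had 3.30 and 0.635 CPM, and macrophage-gated cells had 0 UMIs of 1309090 at L0, which allows up to 2.82 CPM (exact 95% interval). A CLDN5 UMI was seen in 5.42% of neutrophil-gated cells at L0 and in 1.03% at L20, against 2.95% and 0.467% of the more deeply read epithelial cells. Thinned, the shares were 4.30% and 0.695% of neutrophil-gated cells and 0.209% and 0.0789% of epithelial cells. PECAM1 was 7.67 CPM in those neutrophil-gated cells at L0, against a mean of 1290.0 CPM in endothelial nuclei of the gland. Whole cells and nuclei were read with different kits, so these levels stand side by side only. The paper reports endothelial cells in milk, and CLDN5 in milk cells gated as endothelial is not given here.

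**Figure D5:**
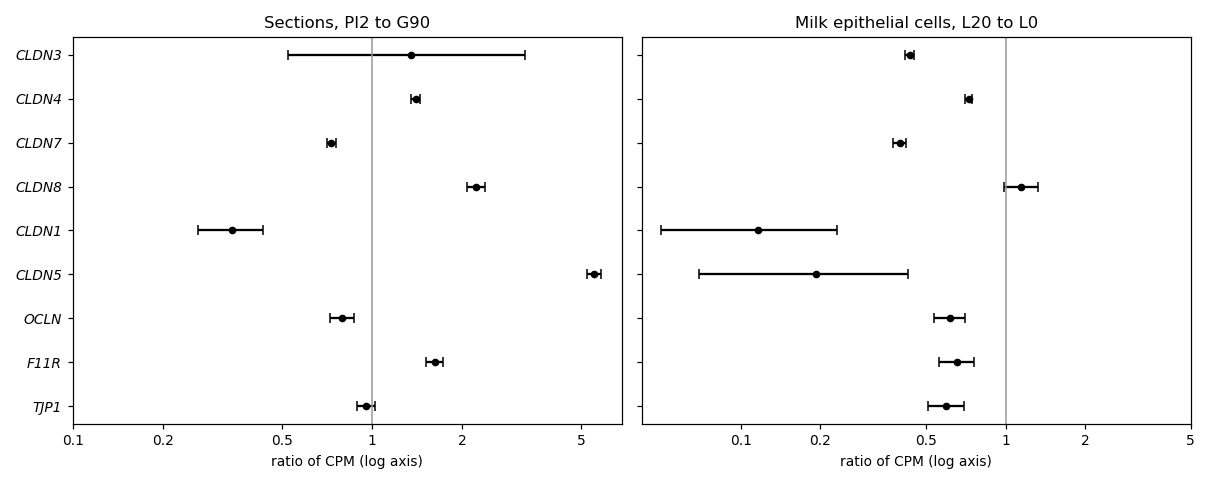
Ratio of CPM (log axis) with 95% exact intervals for counting error, left for the section of PI2 against that of G90 and right for epithelial milk cells of L20 against L0, 1 library each. CLDN5 in the sections is at 5.52. In milk the interval of CLDN8 (1.15) holds 1 and those of the other genes lie below it. The milk intervals of EPCAM (0.942) and CSN2 (1.098), not shown, leave out 1 as well. The share of all genes with such an interval was not counted, so the intervals show nothing particular to these genes. Without cells holding a marker of another class (not shown), only CLDN3 and CLDN7 kept an interval below 1, and CLDN4 (1.58) and F11R (3.22) turned.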

How the data were processed

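Nuclei, Visium spots and milk cells were deposited as UMI counts per gene, made by the authors with CeleScope or Space Ranger on Sscrofa11.1, with no later normalization. Free RNA and doublets were not removed, and no doublet caller was run here, but a nucleus without a clear leading class stayed ungated. A nucleus was kept with 300 or more genes and a mitochondrial share of up to 25%, and a class needed 2 markers and 2 times those of the next class. Counts were summed per gland and class (at least 20 nuclei) and tested with edgeR 4.0.16 (TMM, quasi-likelihood, Benjamini-Hochberg over all genes), classes with the sow as a block, and stages with stage alone. DESeq2 1.42.0, other filters, gates and left-out glands were alternatives. With 2 glands a stage, p-values measure the spread between these samples only. Sections and milk have 1 library a stage and got exact 95% intervals and no test. The 9 genes and the lists of other junction genes were chosen with earlier results of these data known. All 9 genes are named, with a stage fold change where the unadjusted p was under 0.05. Of the other junction genes at most 5 a contrast are named, those called with the largest change.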

Additional observations from a re-analysis of the deposited data

Results flagged for a closer look

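The log2 ratio of TJP1 between epithelial and fibroblast nuclei was -0.0886 in L0 gland 1, far below those of the other glands by a gap test. The test was run on 13 comparisons, and chance flags about 1 in 20 groups. CLDN5 differed between lymphatic and blood endothelial nuclei in opposite directions at 2 stages, with log2 ratios of 0.718 and 1.59 at G90 and of -0.548 and -0.812 at PI7. The ratio of 1.59 rests on sums of 87275 lymphatic and 267742 blood UMIs, and so on few CLDN5 UMIs. The difference between the stages was not tested. The other 4 glands compared had ratios on both sides of 0, the lowest being -1.86 in PI2 gland 1.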

How the results depend on the processing

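No member was called between stages under most settings, and the exceptions follow. DESeq2 called 1 member contrast over all nuclei, fitting only the 2 stages compared called 1 over all nuclei and 1 in epithelial nuclei, and no filter on low counts called 1 in endothelial nuclei. That last call stands beside 192 genes called in endothelial nuclei over the 4 contrasts. Their share of the genes tested is not given, so nothing is read from it. Counts of all genes called over the 4 stage contrasts moved more. Over all nuclei they went from 0 to 1494 with DESeq2, 305 with no filter, 407 with only 2 stages and 0 to 15 with 1 gland left out, PI2 glands 1 and 2 and L20 gland 1 giving values above 0. In epithelial nuclei they went from 1 to 1807, 654 and 1005 under the first 3 of these settings, 17 without nuclei holding a marker of another class, and 0 to 144 with 1 gland left out (132 and 144 without a gland of PI2, 12 without either gland of G90). In endothelial nuclei they went from 0 to 57, 192, 7 and 13, and 0 to 3 with 1 gland left out. The cause was not tested. The replicate numbers do not pair the glands: deviations of glands with the same number correlated between -0.50 and 0.36 over all nuclei, with 3 of 10 pairs above 0.1. With the replicate block no member was called, and the count of genes in epithelial nuclei was 0.

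Between classes, 19 member calls became 8, and 5103 genes were called, when nuclei with a marker of another class were left out, since only 4 members could be tested, in 5 classes, where TJP1 in epithelial nuclei lost its call. That setting could not compare hormone-sensing nuclei and left 0 members and 0 genes called for the KIT and ALDH1A3 subclass, and over both subclass contrasts no filter gave 2540 genes and no sow block 472. It gave no value for lymphatic nuclei, where no filter called 1 member and 974 genes and no sow block 1 member. These directions turned: CLDN4 in endothelial nuclei from PI2 to PI7 without PI2 gland 2 (0.42, and -3.88 at the other end with 1 gland left out), OCLN in macrophage nuclei at 3 markers (0.354), F11R in lymphatic nuclei with DESeq2 (0.0259), TJP1 in thinned sections (1.13), and CLDN4 (1.58) and F11R (3.22) in milk cells without other markers, where 1 member had an interval above 1 and 2 below. Of the remaining class values, 153 stayed on their side of the limits, 19 lost the call and 2 gained one. Depth kept CLDN1 in endothelial nuclei, and all but 4 of the 9 genes in lymphatic nuclei, from being tested.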
